A study of Danio rerio with 15 samples.

Results

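SF3a and SF3b are the protein complexes that, with the U2 small nuclear RNA, recognise the branch point of introns. Their subunit genes are SF3A1, SF3A2 and SF3A3, and SF3B1 to SF3B6 with PHF5A. These 10 genes were taken by Ensembl identifier from the 32105 rows of the count table, and all 10 were among the 18020 genes that passed the filter on low counts. Symbols are those of the gene name table, which writes many zebrafish genes in capitals. As known mainly from human and yeast work, SF3B1 is a ring of helical repeats that closes around the helix formed by U2 RNA and the branch site. PHF5A forms with it the pocket that holds the branch point adenosine, and SF3a joins SF3b to the core of the U2 particle. SF3b is also part of the minor spliceosome, which removes the rare U12-type introns.

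Read counts came from oligo(dT)-primed RNA-seq of kdrl-positive cells sorted from zebrafish embryos at 28 hours post fertilization. The 3 genotypes were wildtype, sibling and sf3b1 mutant, and every embryo overexpressed Stat3, a cytokine-activated transcription factor, as the wildtype protein (WT-Stat3) or a constitutively active form (CA-Stat3). For every genotype there were 2 WT-Stat3 libraries and 3 CA-Stat3 libraries, and no library without Stat3 overexpression was analysed here. The labels do not name the sf3b1 allele, the alleles that siblings carry, the promoter that drives Stat3, or how many embryos were pooled. Nor do they state that replicates were separate clutches, so the p-values reflect only how much these libraries varied, and some of that variation may be technical.

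Totals were 3625121 to 8170371 counts per library, and the 5 mutant libraries were shallower in the median than the others. Mutant WT-Stat3 library 2 was the shallowest, had 39.5% of its counts in the row zgc:158463, and lay apart on the first principal component. The sorted gene kdrl, an endothelial growth factor receptor, had 329 to 884 CPM (counts scaled to a common library size, with TMM normalization), and all 10 matched endothelial marker rows had counts in every library. Of those 10, edgeR called 0 between mutant and wildtype and 3, all higher, between mutant and sibling (a call is a BH-adjusted p under 0.05). Markers of other cells moved with genotype. Of 17 leukocyte rows tested 16 were lower in mutants, with a summed level of 162 to 614 CPM against 1150 to 3026 CPM in the 10 other libraries. Of 11 erythroid rows 7 were higher, with sums of 1144 to 2874 CPM against 533 to 2425 CPM. Of 11 neural, 5 muscle and 10 epidermal rows, 5, 2 and 4 were lower, beside 14.8% of all tested genes lower and 13.9% higher. Neural sums were 166 to 345 CPM in mutants and 270 to 780 CPM in the other libraries, muscle sums 25.8 to 144 and 28.4 to 1016 CPM, and epidermal sums 657 to 1432 and 1183 to 2387 CPM. No leukocyte, erythroid, neural or epidermal row was at 0 in all mutant libraries, and 1 of 8 muscle rows was at 0 in every library. Against siblings 15 leukocyte, 9 neural, 3 muscle and 1 epidermal rows were lower and 4 erythroid rows were higher, beside 13.9% of all genes lower and 12.4% higher. In such bulk samples fewer cells of a type and less RNA per cell cannot be told apart, and the part of these markers in the subunit genes' values was not tested.

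SF3B1 (ENSDARG00000056138), the mutated gene, was the only 1 of the 10 with lower transcript in mutants. With WT-Stat3 the libraries held 185 and 170 CPM in wildtypes, 167 and 157 CPM in siblings, and 93.3 and 105 CPM in mutants. With CA-Stat3 they held 208, 198 and 203 CPM in wildtypes, 168, 157 and 172 CPM in siblings, and 108, 92.3 and 82.0 CPM in mutants. Every mutant library therefore lay below every other library, while the highest sibling library exceeded the lowest wildtype library. The fall was -0.97 ± 0.11 (log2, SE) against wildtype (95% interval -1.22 to -0.73, edgeR BH-adjusted p = 1.76e-05) and -0.76 ± 0.11 against siblings (edgeR BH-adjusted p = 0.000199). Mutants thus kept 0.509 of the wildtype level and 0.590 of the sibling level. These counts cover the whole gene and do not tell a mutant from a normal transcript. Of all 18020 genes, 14.8% were called lower in mutants against wildtype and 13.9% against siblings.

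**Figure D1:**
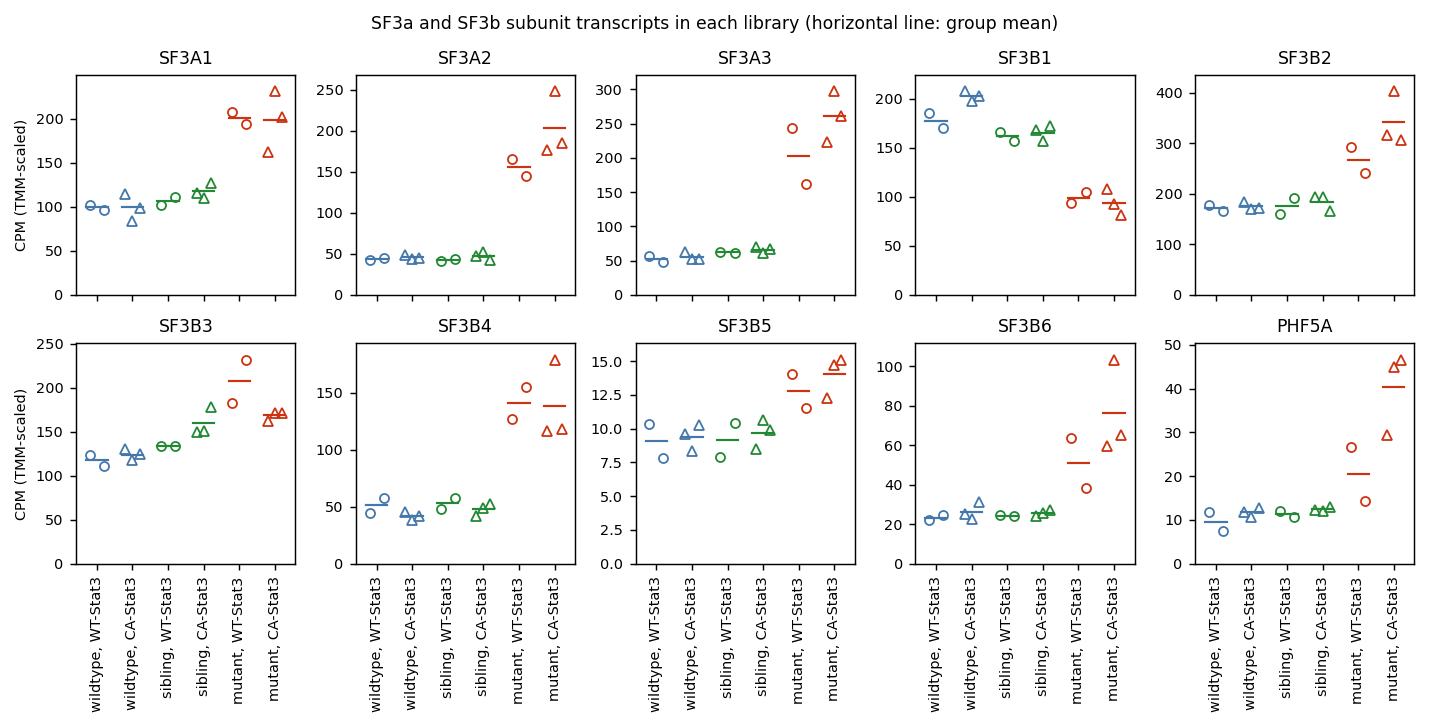
TMM-scaled CPM of each subunit gene in the 15 libraries, by genotype (blue wildtype, green sibling, red mutant) and construct (circles WT-Stat3, triangles CA-Stat3), with a line at each group mean. SF3B1 is lower in all 5 mutant libraries, and the other 9 genes have higher group means in mutants, with the smallest separation in SF3B5 and SF3B3.

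Transcripts of the 3 SF3a genes rose in mutants, and SF3A2 and SF3A3 had the largest increases of the 10. SF3A3 (ENSDARG00000100114), which is needed for SF3a to join the U2 particle, had 57.0 and 47.3 CPM in wildtype, 62.0 and 61.6 CPM in sibling and 244 and 162 CPM in mutant libraries with WT-Stat3. With CA-Stat3 it had 63.2, 52.1 and 52.2 CPM in wildtypes, 70.1, 61.5 and 66.2 CPM in siblings, and 224, 298 and 262 CPM in mutants. The lowest mutant library, at 162 CPM, was thus far above the highest of the other 10, at 70.1 CPM. SF3A3 rose by 2.09 ± 0.14 (log2, SE), or 4.27-fold, against wildtype (edgeR BH-adjusted p = 5.35e-08), and the rise against siblings was 1.85 ± 0.14 (edgeR BH-adjusted p = 2.61e-07).

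SF3A2 (ENSDARG00000021107), a zinc-finger subunit, stood at 42.2 to 48.3 CPM in 5 wildtypes and 41.7 to 52.7 CPM in 5 siblings. Mutant libraries held 166 and 145 CPM with WT-Stat3, and 176, 249 and 186 CPM with CA-Stat3, with no overlap. The rise was 1.99 ± 0.13, or 3.98-fold, against wildtype (edgeR BH-adjusted p = 3.48e-08), which ranked 22 of 18020 genes by p, and 1.98 ± 0.13 against siblings (edgeR BH-adjusted p = 4.54e-08). SF3A1 (ENSDARG00000041887), the SF3a subunit that in human cells contacts U1 RNA, rose less. It went from 99.1 ± 11.2 CPM in wildtypes and 113 ± 9.3 CPM in siblings to 199 ± 25 CPM in mutants (SD, n = 5 each). That was 1.01 ± 0.13 against wildtype (edgeR BH-adjusted p = 4.41e-05) and 0.83 ± 0.13 against siblings (edgeR BH-adjusted p = 0.000292). Its lowest mutant library, at 162 CPM, lay above its highest non-mutant library, at 127 CPM.

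Apart from SF3B1, which fell, the SF3b subunits that lie at the branch site or bind RNA beside it rose in mutants as well. SF3B4 (ENSDARG00000018574), an RNA-binding protein that contacts the intron upstream of the branch site, had 38.5 to 57.8 CPM in wildtypes, 42.1 to 57.4 CPM in siblings and 117 to 179 CPM in mutants. It rose by 1.59 ± 0.15, or 3.02-fold, against wildtype (edgeR BH-adjusted p = 2.87e-06), and by 1.47 ± 0.15 relative to siblings (edgeR BH-adjusted p = 7.5e-06). SF3B2 (ENSDARG00000018049), the binding partner of SF3B4, went from 174 ± 6.6 to 312 ± 59.0 CPM (SD, n = 5 each). Its rise was 0.80 ± 0.12 against wildtype (edgeR BH-adjusted p = 0.000197) and 0.75 ± 0.12 against siblings (edgeR BH-adjusted p = 0.000457).

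PHF5A (ENSDARG00000045155), the subunit of the adenosine pocket, was among the least counted members and varied most among mutants. Its mutant libraries held 26.7 and 14.3 CPM with WT-Stat3 and 29.4, 44.9 and 46.6 CPM with CA-Stat3. Wildtypes had 7.40 to 12.7 CPM and siblings 10.8 to 12.8 CPM, so the lowest mutant, replicate 2 of the WT-Stat3 group, was only just above them. PHF5A rose by 1.44 ± 0.21 against wildtype (edgeR BH-adjusted p = 0.000102), and relative to siblings the rise was 1.28 ± 0.21 (edgeR BH-adjusted p = 0.000358). SF3B6 (ENSDARG00000009753), which in human spliceosomes can be crosslinked to the branch point adenosine, had the same lowest mutant library. It held 63.6 and 38.3 CPM in mutants with WT-Stat3, and 59.7, 103 and 65.2 CPM with CA-Stat3. Non-mutant libraries lay between 21.9 and 31.3 CPM, below all 5 mutants. SF3B6 rose by 1.34 ± 0.18 against wildtype (edgeR BH-adjusted p = 7.33e-05) and 1.33 ± 0.18 against siblings (edgeR BH-adjusted p = 0.000105). Without mutant WT-Stat3 library 2 the mutant mean was 72.9 CPM for SF3B6 and 36.9 CPM for PHF5A. With that library the means were 66.0 and 32.4 CPM.

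SF3B3 and SF3B5, which in animals are also subunits of the SAGA transcription coactivator, had the smallest rises. SF3B3 (ENSDARG00000103553), a propeller-shaped scaffold, had 124 and 111 CPM in wildtypes, 134 and 134 CPM in siblings and 183 and 232 CPM in mutants with WT-Stat3. With CA-Stat3 the libraries held 130, 118 and 124 CPM, 150, 151 and 178 CPM, and 162, 171 and 172 CPM in the same order of genotypes. Mutants were above wildtypes in every library, but 1 sibling with CA-Stat3 exceeded all 3 mutants with that construct. SF3B3 rose by 0.63 ± 0.11 against wildtype (edgeR BH-adjusted p = 0.00071), and relative to siblings the rise was 0.35 ± 0.11 (edgeR BH-adjusted p = 0.03). The call against siblings was lost when any of 9 libraries was left out, at 0.27 to 0.35. These were replicates 2 and 3 of the mutant CA-Stat3 group, mutant WT-Stat3 library 2, replicates 1 and 2 of the sibling CA-Stat3 group, and both replicates of the sibling WT-Stat3 and of the wildtype WT-Stat3 group. Without mutant WT-Stat3 library 2 the value was 0.27 (edgeR BH-adjusted p = 0.116).

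SF3B5 (ENSDARG00000016855), a very small SF3b protein, had the fewest counts, 33 to 88 per library. It stood at 10.3 and 7.85 CPM in wildtypes, 7.90 and 10.4 CPM in siblings and 14.0 and 11.5 CPM in mutants with WT-Stat3. With CA-Stat3 it stood at 9.62, 8.35 and 10.3 CPM in wildtypes, 8.48, 10.6 and 9.88 CPM in siblings, and 12.3, 14.7 and 15.1 CPM in mutants. All 5 mutant libraries were above the other 10, by a margin of under 1 CPM at the closest. The change was 0.53 ± 0.18 against wildtype (95% interval 0.14 to 0.92, edgeR BH-adjusted p = 0.0396) and 0.52 ± 0.19 against siblings (95% interval 0.13 to 0.91, edgeR BH-adjusted p = 0.049). Leaving out single libraries gave 0.40 to 0.60 against wildtype, and the call stayed only without replicate 1 of the mutant CA-Stat3 group, mutant WT-Stat3 library 2, or replicate 1 or 2 of the sibling CA-Stat3 group. Against siblings the values were 0.40 to 0.59, and the call stayed only without replicate 1 of the mutant CA-Stat3 group.

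**Figure D2:**
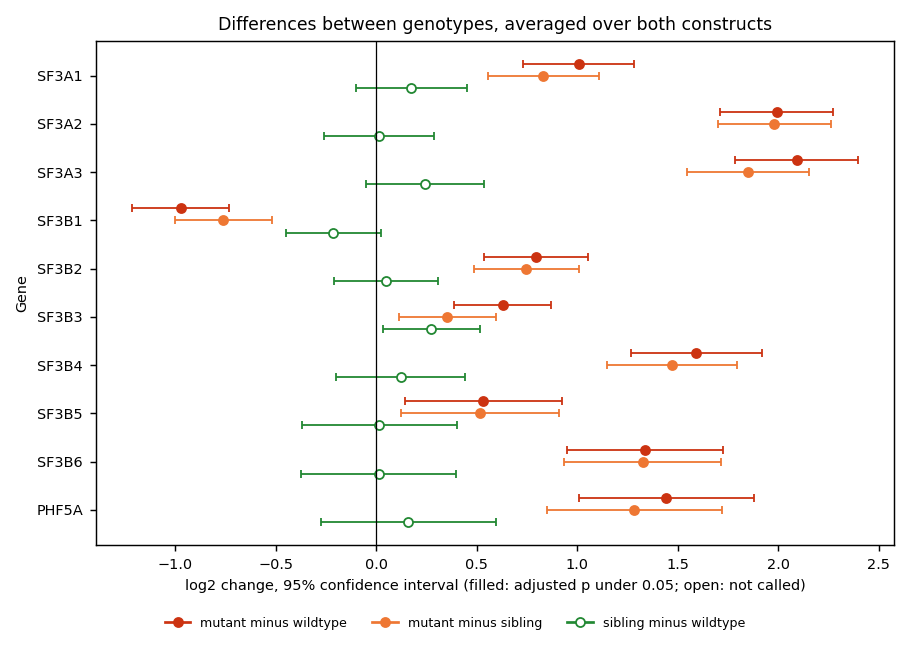
Log2 differences of the 10 genes for mutant minus wildtype, mutant minus sibling and sibling minus wildtype, averaged over constructs, with 95% confidence intervals. SF3B1 is at -0.97 and -0.76 in the mutant comparisons and the other 9 genes lie between 0.35 and 2.09, while no sibling minus wildtype value is called.

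By edgeR with BH adjustment, 9 of the 10 genes were higher and 1 was lower in mutants, against wildtype and likewise against siblings. Among all tested genes 28.7% were called against wildtype (13.9% higher and 14.8% lower in mutants) and 26.2% against siblings (12.4% higher and 13.9% lower). The median change of the 10 genes was 1.17 (log2) against wildtype, beside -0.03 over all tested genes, and 1.06 against siblings, beside -0.02. The 2 comparisons share the mutant libraries and are not independent. Libraries of mutants and wildtypes did not overlap within either construct for any of the 10 genes, and against siblings for 9 of 10, with SF3B3 the exception. Over all genes such separation was found for 11.7% (higher) and 13.1% (lower) against wildtype, and for 10.3% and 10.6% against siblings.

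The level of SF3B1 relative to its partners was then set out library by library. The summed level of the other 9 genes was 548 to 631 CPM in wildtypes, 591 to 681 CPM in siblings and 1192 to 1695 CPM in mutants. SF3B1 supplied 23.2% to 26.5% of the counts of the 10 genes in wildtypes, 19.1% to 22.0% in siblings and 5.17% to 8.11% in mutants. On the log2 CPM scale, SF3B1 lay above the mean of the other 9 genes by 2.13 ± 0.09 in wildtypes and 1.78 ± 0.09 in siblings, and at -0.14 ± 0.36 in mutants (SD, n = 5 each). The summed CPM depend on the scaling between libraries. The shares compare each library with itself and do not, and the log2 difference does so only through the prior count. Longer genes give more counts, so none of these values are ratios of molecules. No 2 genotypes overlapped in this difference, which ran from 2.04 to 2.27 in wildtypes, 1.66 to 1.91 in siblings and -0.55 to 0.29 in mutants. It is a description of genes chosen with earlier results known and was given no test.

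**Figure D3:**
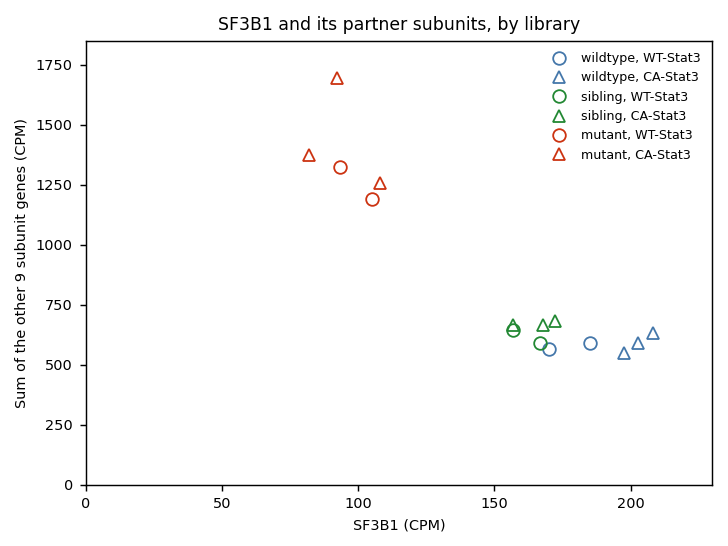
SF3B1 level (x axis, CPM) against the summed level of the other 9 subunit genes (y axis, CPM) in each of the 15 libraries. Mutant libraries sit at 82.0 to 108 CPM of SF3B1 and 1192 to 1695 CPM of partners, apart from the 10 wildtype and sibling libraries at 157 to 208 CPM and 548 to 681 CPM.

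No subunit gene was called between siblings and wildtypes. By edgeR 0 of the 10 passed, 1 had an unadjusted p under 0.05, and DESeq2 and limma also called 0. Over all genes edgeR called 0% of genes, with 1712 at an unadjusted p under 0.05, and DESeq2 called 12. The gene with the smallest p was SF3B3, at 0.27 ± 0.11 (95% interval 0.04 to 0.51, edgeR BH-adjusted p = 0.499), and every sibling library was above every wildtype library within each construct. SF3B1 was at -0.21 ± 0.11 (95% interval -0.45 to 0.02, edgeR BH-adjusted p = 0.567), with every sibling below every wildtype within each construct. Over all genes 2.49% separated upward and 1.96% downward in this way. The other 8 genes overlapped between the groups in at least 1 construct, at 0.01 to 0.24. Their intervals were widest for PHF5A (-0.28 to 0.59), SF3B6 (-0.38 to 0.40) and SF3B5 (-0.37 to 0.40). Moderate differences in these genes could therefore not be detected with these libraries, and the part of depth was not tested.

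Within each construct the pattern was the same in direction. Against wildtype, 8 genes were higher, SF3B1 was lower and SF3B5 was not called, with WT-Stat3 and likewise with CA-Stat3. Of all genes, 12.1% were called with WT-Stat3 (6.14% higher and 5.94% lower) and 14.7% with CA-Stat3 (7.26% higher and 7.43% lower). SF3A2 rose by 1.84 ± 0.20 with WT-Stat3 and by 2.15 ± 0.17 with CA-Stat3 (edgeR BH-adjusted p = 5.26e-05 and 5.64e-07), and SF3B1 fell by 0.84 ± 0.18 and 1.11 ± 0.14 (edgeR BH-adjusted p = 0.00689 and 0.000133). SF3B3 stood at 0.82 ± 0.18 and 0.44 ± 0.14 (edgeR BH-adjusted p = 0.00806 and 0.0484). Against siblings 6 genes were higher and SF3B1 lower with WT-Stat3, beside 7.48% of all genes called (3.88% higher, 3.6% lower), and 7 were higher and SF3B1 lower with CA-Stat3, beside 15.8% (7.49% higher, 8.31% lower). The genes not called were SF3B2, SF3B5 and PHF5A with WT-Stat3, and SF3B3 and SF3B5 with CA-Stat3. SF3B3 with CA-Stat3 was at 0.08 ± 0.14 (95% interval -0.22 to 0.38).

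Counts with WT-Stat3 rested on 2 libraries a group. The 9 calls against wildtype became 4 (SF3A2, SF3A3, SF3B1 and SF3B4) without wildtype WT-Stat3 library 2, and the 7 calls against siblings became 3 without replicate 1 or 2 of the sibling WT-Stat3 group and 4 without mutant WT-Stat3 library 2. SF3A2, SF3A3 and SF3B4 were called against wildtype and against siblings, in either construct, under all 25 settings run. Against wildtype, SF3B2 with WT-Stat3 and SF3B3 with CA-Stat3 were each called under only 9 of the 25. SF3B3 against siblings with WT-Stat3 was called under 13. The fall of SF3B1 with WT-Stat3 was called under 24 against wildtype and 20 against siblings, and with CA-Stat3 under all 25 in both comparisons.

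**Figure D4:**
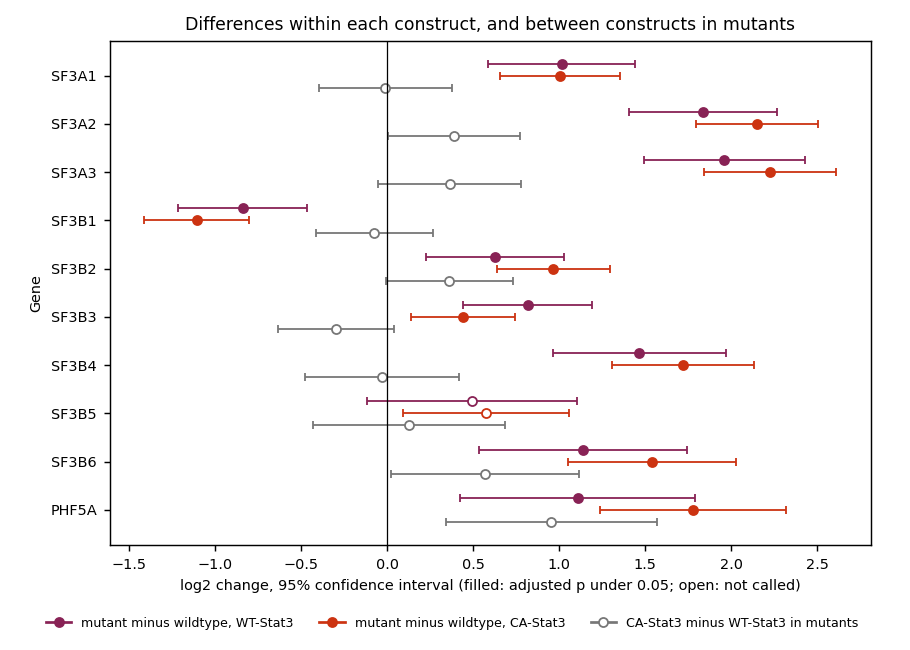
Log2 differences with 95% confidence intervals for mutant minus wildtype with WT-Stat3, mutant minus wildtype with CA-Stat3, and CA-Stat3 minus WT-Stat3 in mutants. The 2 mutant intervals overlap for each gene, and no difference between constructs in mutants is called, PHF5A being farthest from 0 at 0.95.

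Active Stat3 and wildtype Stat3 were then compared directly. Averaged over genotypes, edgeR called 0 of the 10 genes and 0% of all genes, DESeq2 and limma also called 0 of the 10, and 1 of the 10 had an unadjusted p under 0.05. Over all genes, 2286 had an unadjusted p under 0.05, and DESeq2 called 133 and limma 1. The subunit genes lay between -0.15 ± 0.12 (SF3B4) and 0.45 ± 0.17 (PHF5A, edgeR BH-adjusted p = 0.291). In wildtypes and in siblings 0 of the 10 were called by edgeR, DESeq2 or limma, and 0 had an unadjusted p under 0.05. In mutants 0 were called by the same tools, DESeq2 giving no adjusted p for PHF5A, while PHF5A, SF3B6 and SF3A2 had an unadjusted p under 0.05. PHF5A was at 0.95 ± 0.29 there (95% interval 0.34 to 1.57, edgeR BH-adjusted p = 0.375), with the 3 CA-Stat3 libraries above both WT-Stat3 libraries. It moved to 1.51 (edgeR BH-adjusted p = 0.0369) without mutant WT-Stat3 library 1 and to 0.60 without replicate 2. SF3B6 was at 0.57 ± 0.26 and SF3A2 at 0.39 ± 0.18.

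The interaction term asked whether the mutant difference itself changed with the construct. By edgeR 0 of the 10 genes were called against wildtype and 0 against siblings, as by DESeq2 and limma, with 0 and 1 at an unadjusted p under 0.05. The single gene was SF3B3, whose mutant minus sibling difference was smaller with CA-Stat3 by -0.55 ± 0.23 (95% interval -1.03 to -0.07, edgeR BH-adjusted p = 0.876). Mutant WT-Stat3 library 2 held its highest value, 232 CPM. Intervals of the other genes reached from -0.75 to 1.69 across both terms, so differences of that size remain possible.

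Other genes of the U2 particle and of the steps around it were counted in the same comparison, in which 13.9% of all tested genes were higher and 14.8% lower. Among 8 rows of the Sm ring, the 7-protein collar of spliceosomal RNAs, 8 were higher in mutants than in wildtypes, with a median of 1.37. Those with the smallest p were SNRPD2 (1.96 ± 0.18), the SNRPD3 row ENSDARG00000013800 (2.22 ± 0.25) and SNRPF (1.56 ± 0.18), the last from 86.8 ± 5.9 to 283 ± 116 CPM (SD, n = 5 each). Of 15 proteins that bind U2 or the branch site region, 8 were higher and 0 lower, with a median of 0.42. HTATSF1, which binds SF3B1 before the branch site is bound, rose by 2.36 ± 0.16 from 27.8 ± 3.5 to 151 ± 43.3 CPM, the helicase DHX15 by 1.12 ± 0.13, and SNRPA1, a core U2 protein, by 1.31 ± 0.16. Rows named U2AF2 and PUF60 were added after their values were seen. U2AF2, which binds the polypyrimidine tract, was at 0.64 ± 0.13 (ENSDARG00000012505, edgeR BH-adjusted p = 0.00138) and 0.08 ± 0.11 (ENSDARG00000011740, not called), and PUF60 was at 0.25 ± 0.12 (not called).

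Of 7 U1 particle genes 4 were higher and 0 lower (median 0.43), those with the smallest p being LUC7L (1.21 ± 0.13), PRPF39 (0.78 ± 0.13) and LUC7L3 (0.72 ± 0.18). Of 7 genes whose products meet SF3b in the activated spliceosome, 3 were higher and 0 lower (median 0.46). DHX16, the helicase that strips SF3a and SF3b from the branch site, rose by 2.11 ± 0.15 from 39.7 ± 3.6 to 174 ± 32.3 CPM. The other calls were bud13 (0.62 ± 0.22, edgeR BH-adjusted p = 0.0407) and CWC22 (0.31 ± 0.11, edgeR BH-adjusted p = 0.0469). No single library could be left out with all 3 calls kept. Without replicate 1 of the mutant CA-Stat3 group bud13 was not called. CWC22 was not called without replicate 3 of that group, mutant WT-Stat3 library 2, or replicate 1 or 2 of the sibling CA-Stat3 group. Leaving out any other library left 1 call, DHX16. Without mutant WT-Stat3 library 1 bud13 was at 0.14.

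Proteins specific to the minor spliceosome, which shares SF3b, gave 0 calls among 11 by edgeR (median 0.30), with 3 at an unadjusted p under 0.05, 2 called by DESeq2 and 1 by limma. Leaving out mutant CA-Stat3 library 1 gave 3 edgeR calls and leaving out sibling CA-Stat3 library 3 gave 1, as did a replicate block and a fit on only the libraries compared. Of 19 SAGA genes, the other complex of SF3B3 and SF3B5, 2 were higher and 1 lower (median 0.09), a smaller share than the 28.7% called over all genes. SUPT7L rose by 3.15 ± 0.21 from 5.27 ± 1.1 to 46.3 ± 9.6 CPM, TAF10 rose by 1.52 ± 0.15, and the acetyltransferase KAT2A fell by 0.61 ± 0.15 (SD of CPM, n = 5 each).

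**Figure D5:**
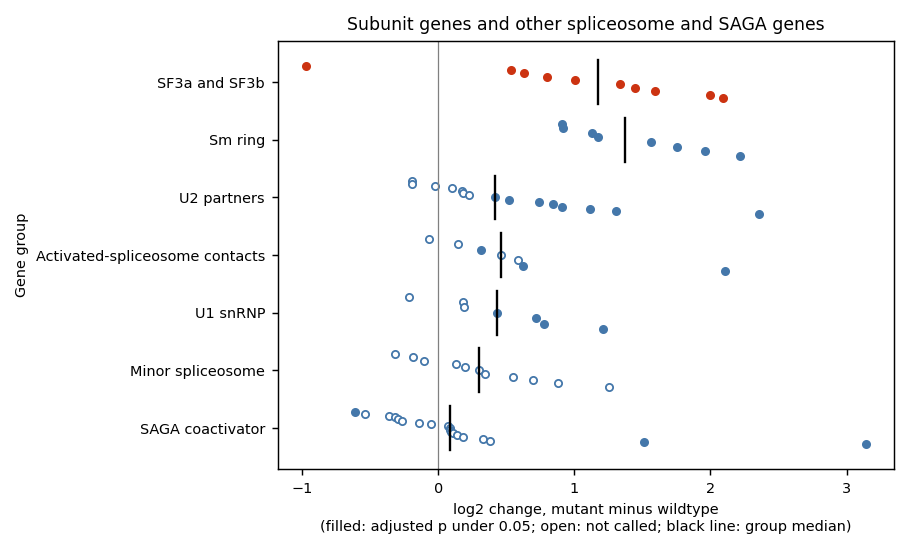
Log2 change, mutant minus wildtype, of each gene in the SF3a and SF3b set and in 6 other groups, with called genes filled and a black line at each group's median. Medians are 1.17 for SF3a and SF3b and 1.37 for the Sm ring, and 0.09 to 0.46 for the other 5 groups.

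Against siblings the same lists gave 8 higher of 8 Sm rows, 6 of 15 U2 partners, 3 higher and 1 lower of 7 U1 genes, 1 of 7 in the activated spliceosome, 2 of 11 in the minor spliceosome, and 2 higher and 1 lower of 19 SAGA genes, beside 12.4% of all genes higher and 13.9% lower. Between siblings and wildtypes edgeR called 0 in each list.

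Profiles over the 15 libraries were compared by the root mean square difference of log2 CPM after centring each gene on its own mean, among 8260 genes. Nearest to SF3B1 were THOC2, a subunit of the messenger RNA export complex THO (0.169), ppiaa, a cyclophilin (0.169), cnp (0.182), SPRYD3 (0.191) and sh3gl3a (0.192). THOC2 had 128 CPM in mutants and 198 CPM in the other libraries. Nearest to the mean of the other 9 genes were BMS1 (0.106), GNL3L (0.119), DCAF13 (0.125), npm3 (0.126) and FBL (0.130). BMS1 and FBL, known for ribosomal RNA processing in the nucleolus, had 161 and 169.5 CPM in mutants against 70.7 and 74.9 CPM in the other libraries. Among the 9 partners themselves SF3A1 and SF3B6 lay nearest to the mean of the others (0.207 and 0.211) and SF3B3 farthest (0.480).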

How the data were processed

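Poly(A) RNA-seq counts of kdrl-positive cells from 15 libraries in 6 groups were used, and group and replicate number came from the sample titles. In the deposited table the authors give raw, unnormalized read counts, 1 whole number per Ensembl gene and library. The submitters' processing notes list Trim Galore, STAR 2.4.2a, Picard, featureCounts, DESeq2 and build GRCz10, without roles or order. Which annotation release and strand setting were used, and how reads with several matches were treated, is not stated, which makes values of overlapping or near-identical genes uncertain. No coordinates or sequences were used.

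The test was edgeR 4.0.16 (R 4.3.3) on genes passing filterByExpr with the 6 groups (minimum count 10, minimum total 15) after TMM scaling. All 15 libraries entered 1 fit that estimated each group's level, with 9 residual degrees of freedom before moderation. The quasi-likelihood test gave 15 comparisons, each with Benjamini-Hochberg (BH) adjustment over all 18020 genes tested and a threshold of 0.05. Standard errors are the absolute log2 change over the square root of F, and 95% intervals use the moderated degrees of freedom. CPM are counts scaled to a fixed size per TMM-adjusted library, and a prior count of 2 was added for log2 CPM. The fit was also run on simulated independent counts with known changes, as a check of the code only. Library totals were 3625121 to 8170371 counts, and SF3B5, PHF5A and SF3B6 had the fewest counts of the 10 genes. The part of depth in their precision was not tested. The labels name no molecular identifiers.

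The 10 genes and all lists were chosen with earlier results of these data known. A further 6 lists held other spliceosome and SAGA genes, and 6 held markers of cell types that a kdrl sort could contain. Symbols were matched without regard to case. By rule, all 10 genes, kdrl, up to 3 called genes per direction of each spliceosome or SAGA list, and the 5 genes of average log2 CPM of at least 3 nearest in profile to SF3B1 and to the mean of its partners were named. Rows named U2AF2 and PUF60 were added after the values were seen, since 4 listed U2 symbols had no match. Alternatives were limma 3.58.1 (voom, quality weights per sample), RLE scaling, DESeq2 1.42.0, removal of the most abundant row, a fit of unfiltered genes, a filter of 1 CPM in 5 libraries with a total of 50, a replicate block, fits on only the libraries compared, thinning to the shallowest library and leaving out each library. The labels give no batch.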

Additional observations from a re-analysis of the deposited data

Results flagged for a closer look

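For SF3B3, 1 of the 5 mutant libraries lay apart from the rest. The 5 libraries join both constructs, and the 3 with CA-Stat3 held 162 to 172 CPM. Mutant WT-Stat3 library 2 held 232 CPM, and the next highest, mutant WT-Stat3 library 1, held 183 CPM. That gap was 0.712 of the range, just over the Dixon critical value of 0.71 for 5 libraries. It was the single case among 33 sets of 5 libraries tested, where chance marks about 1 in 20. The same library was the shallowest of the 15 and held the lowest mutant value of 6 of the 9 genes that rose, SF3A2, SF3A3, SF3B2, SF3B5, SF3B6 (38.3 CPM) and PHF5A (14.3 CPM). The part of depth in the SF3B3 value was not tested.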

How the results depend on the processing

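Averaged over constructs, 9 of the 10 genes kept their direction and call against wildtype under all 24 alternatives. SF3B1 was at -1.06 to -0.93 and SF3A3 at 1.89 to 2.23, while SF3B5 was called under 10 of 24. Against siblings 8 kept their call, and SF3B5 missed the threshold under each alternative tool or setting, at 0.48 to 0.56. SF3B3 against siblings was lost with no filter (0.31) and with own libraries only (0.35). SF3B5 against wildtype was lost without the most abundant row (0.49), with no filter (0.47) and with thinning (0.58). With own libraries only, the members called with WT-Stat3 fell to 5 against wildtype and 3 against siblings. All of these were higher, so the fall of SF3B1 with WT-Stat3 was not called in that setting. Leaving out single libraries gave 9 to 10 members called against wildtype, 8 to 10 against siblings, 4 to 9 and 3 to 7 with WT-Stat3, and 0 to 1 for the constructs in mutants. Over all genes, the 0 calls between siblings and wildtypes became 12 (DESeq2), 258 (no filter) and 0 to 3 (leaving out libraries), and the 0 calls between constructs became 133 (DESeq2), 1 (limma), 386 (no filter), 1 (thinned) and 0 to 194 (leaving out libraries). The median change of all genes against wildtype was -0.03 (log2) with TMM and with RLE scaling, and -0.07 to -0.02 under the other settings, other than -0.15 when mutant WT-Stat3 library 1 was left out. The causes were not tested.

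With a replicate block, 9 of 10 members were called against siblings, SF3B5 missing at 0.52 (edgeR BH-adjusted p = 0.0522), and calls over all genes were 2 between siblings and wildtypes and 28 between constructs. The labels do not state that replicate numbers pair the libraries. Deviations of same-numbered libraries correlated at -0.148 to 0.336 (median 0.083), over 0.1 in 9 of 33 pairs. Those of differently numbered libraries correlated at -0.392 to 0.392 (median -0.028), over 0.1 in 5 of 60 pairs. Of 15 libraries, 10 correlated best with a library of their own number, and no chance level was computed for this. Deviations were taken from the group mean, so the 2 libraries of a WT-Stat3 group are exact opposites. The pairs are therefore partly duplicated and cannot settle whether libraries were paired. Counts were lowest for SF3B5 (33 to 88 per library) and PHF5A (41 to 253). PHF5A had the larger standard error, 0.21 against 0.18 (log2) in mutants against wildtypes. The part of depth in these errors was not tested.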
